A study of Mus musculus with 4 samples.

Results

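The 10 genes described here are transcription regulators of the neural crest and of embryonic mesenchyme, namely Kctd15, the AP-2 genes Tfap2a, Tfap2b and Tfap2c, the Snail genes Snai1 and Snai2, the Twist genes Twist1 and Twist2, Prrx1 and Ets1. They are 10 of the 31829 gene names on the array. Their signals were read on 4 Agilent single-color mouse arrays, each hybridised with Cy3-labelled RNA of a separate preparation of mouse embryonic fibroblasts (MEFs), primary cells grown out of trypsinised C57BL/6J embryos and harvested in logarithmic growth. The group called G2KO is CycG2-/-, its wild type (WT), called G2WT here, is CycG2+/+, the double knockout (DKO) is CycG1-/- CycG2-/-, and its WT, called DKOWT here, is CycG1+/+ CycG2+/+. CycG1 and CycG2 are cyclin G1 and cyclin G2, encoded by Ccng1 and Ccng2, and the Ccng1 allele lacks all coding exons, which a neomycin cassette replaces. The study calls its G2KO MEFs female in origin. The sex of the other cells and the number of embryos per preparation are not given in the sources used here.

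Members were taken as the probes whose gene name equals a member. This found 7 of the 10 genes with 9 probes, and the AP-2 genes were reached through the older names Tcfap2a, Tcfap2b and Tcfap2c, which added 4 probes. The set was chosen by signals of these same 4 arrays and with earlier results of them known, so the counts and ratios below are descriptions and carry no test. Each signal was divided by its array's 75th percentile, and the result is called the relative signal. A log2 ratio is the difference of such signals between a pair of arrays. Read as a threshold, the 75th percentile was passed on all 4 arrays by 5 of the 13 probes. Among these 5 probes the lowest value was that of Snai2, at 1.004 on the DKO array. Twist2 fell below the 75th percentile on the G2WT array alone, at 0.267. With 1 array per group, a ratio of at least 4-fold was counted as a change in level, and no ratio has a replicate behind it.

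In the embryo, neural crest cells leave the border of the neural plate, lose their epithelial contacts and give rise to facial skeleton, peripheral neurons, glia and pigment cells. AP-2 proteins are early activators of this program, and Kctd15 is a BTB-domain protein that binds AP-2 and blocks its activation domain. Snail and Twist factors bind E-box sequences and repress epithelial genes such as Cdh1 (E-cadherin), Prrx1 is a paired-related homeobox factor of limb and facial mesenchyme, and Ets1 is the founding member of the ETS family. Fibroblast cultures from whole embryos hold mesenchyme of several origins, and in bulk RNA fewer cells of a type and less RNA per cell cannot be told apart.

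The probes on which the ratios rest are shown first, because a signal stands only for the stretch of transcript that its 60 bases match. Labelling was primed from the poly(A) end. The stronger Tfap2a probe (chr13:40811044-40811103 of mm9, minus strand) holds a poly(A) hexamer, in capitals. The weaker Tfap2a probe (chr13:40829040-40829099, minus strand) holds an ATG, in capitals, at its base 11, with no stop codon in that frame up to its end. The weaker Ets1 probe (chr9:32561826-32561885, plus strand) is likewise open in 1 frame and encodes part of the ETS DNA-binding domain. The Kctd15 probe (chr7:35424040-35424099, minus strand), which gave the largest ratio of the set, is shown by its first 30 bases, as are the Snail and Twist probes.
Tfap2a, stronger probe, 30 bases: gttgcccagataAATAAAtatttgatacgc
Tfap2a, weaker probe, 60 bases: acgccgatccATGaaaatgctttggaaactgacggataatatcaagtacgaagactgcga
Ets1, weaker probe, 60 bases: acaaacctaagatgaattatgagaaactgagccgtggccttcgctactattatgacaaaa
Kctd15, first 30 bases: tgttctgtgtttgtgtgaacacaccgcgtt
Snai1, first 30 bases: gtttcacagcagtttaactgtctcagaagg
Snai2, first 30 bases: gtgaggtacggttaatagccacgcctatat
Twist1, first 30 bases: atggtaacaatcagaggaattttaacacct
Twist2, first 30 bases: ttattgagatattttaccagctaagtgact
Over their full length the Snai1 and Snai2 probes shared no run longer than 6 bases, and the same held for the Twist1 and Twist2 probes, so the paralogues were read by unlike sequences. The Tfap2a, Tfap2b and Tfap2c probes shared at most 8 bases in a row.

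Facts of all 4 arrays bear on every ratio. Between 65.0% (DKOWT) and 72.2% (DKO) of probes were well above background, and no spot was saturated. In DKO, Ccng1 fell to background, at least 228-fold below DKOWT. On the other arrays Ccng1 read 9.45 on G2WT, 1.98 on the array labelled G2KO and 1.66 on DKOWT. It was thus 4.78-fold lower on the array labelled G2KO and 5.68-fold lower on DKOWT than on G2WT. Ccng2 lay between 0.0619 and 0.104 on all arrays. It was 1.14-fold lower on the G2KO array than on G2WT and 1.304-fold lower on DKO than on DKOWT, so its probe did not tell the genotypes apart. Where the Ccng2 probe lies relative to the deleted part is not given in the sources used here. The 24197 probes that all 4 arrays measured above background had log2 ratios with an SD of 0.859 for G2KO against G2WT, 1.02 for DKO against DKOWT, 1.01 between the WT arrays, and 0.535 for G2KO against DKOWT. The G2WT array alone had Xist well above background (1.13) and the Y-linked genes Ddx3y and Eif2s3y not above it, although the cells that the study calls female are those of G2KO. Sox2, which the study lists as higher in G2KO, was likewise well above background on G2WT alone. Directions of the G2KO comparison, as the labels give them, oppose those the study lists for G2KO genes, so G2KO and G2WT are named below only as the arrays so labelled. In the same way, WT arrays here means the arrays labelled WT. Whether G2WT held wild-type cells was not tested. All 4 arrays lay on the same slide.

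Kctd15 had the widest range of the set. Its relative signal was 5.42 on the array labelled G2KO, 1.54 on G2WT, 0.00832 on DKO and 7.32 on DKOWT. The DKO array stood far below the other three. DKO was 879.7-fold lower than DKOWT (log2 ratio -9.78), 185-fold lower than G2WT and 651-fold lower than the array labelled G2KO. The DKO signal was 14.8 intensity units with a software error of 3.20, only just over the lowest signal that counted as well above background there (12.98), so the ratio is measured, but near the bottom of what the array could measure. The arrays other than DKO differed as well, since DKOWT was 4.74-fold above G2WT and the array labelled G2KO was 3.51-fold above it.

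**Figure D1:**
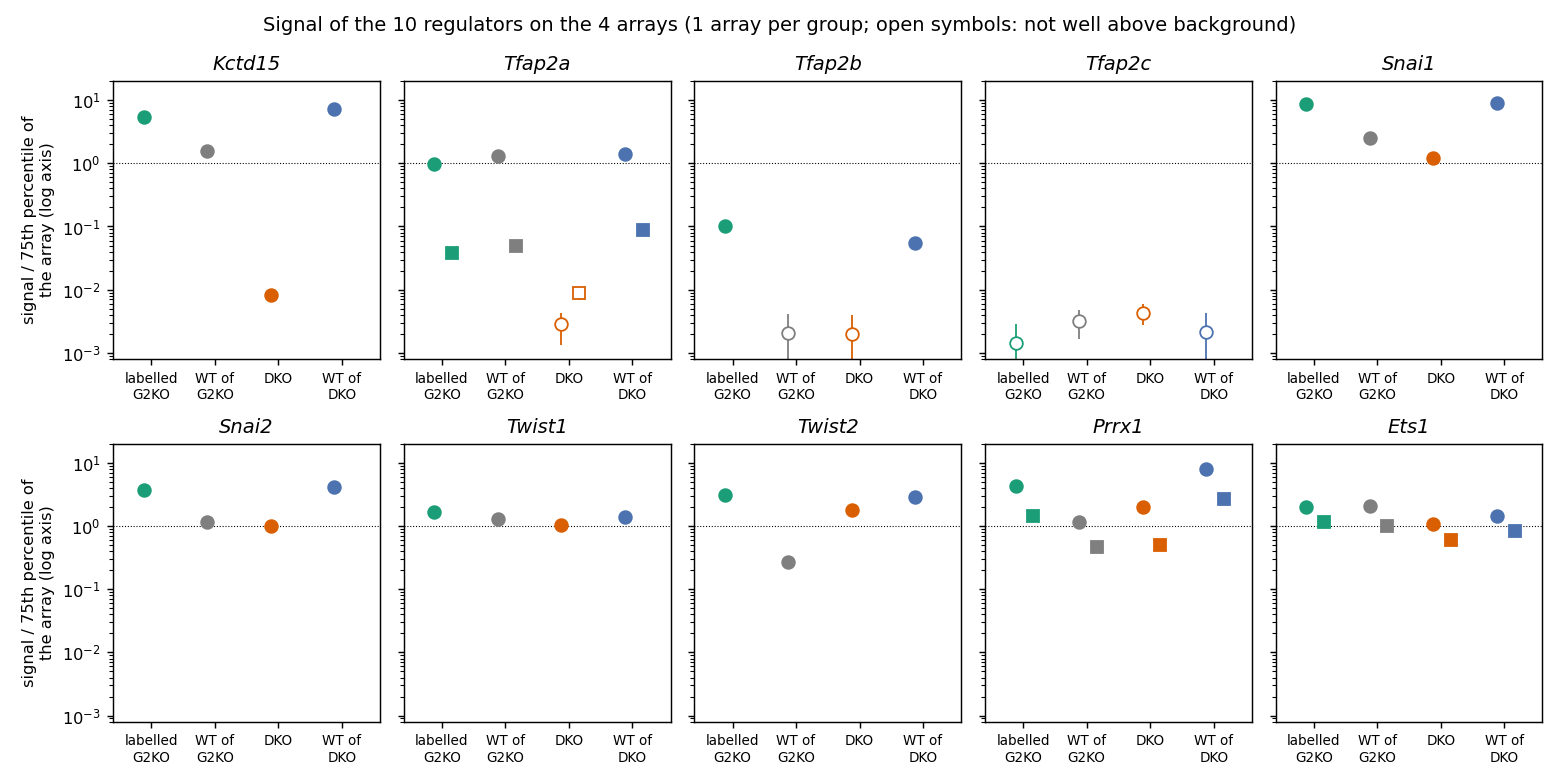
Signal of each regulator on the 4 arrays, divided by the 75th percentile of the array (log axis, dotted line at 1), with 1 array per group. Bars are the scanner software's error of the signal, squares are the weaker probe of a gene with 2 probes, and open symbols were not well above background. Kctd15 drops from 7.32 on DKOWT to 0.00832 on DKO, and Twist2 is lowest on G2WT, at 0.267.

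Tfap2a, the AP-2 gene needed for cranial neural crest, was read by 2 probes. The stronger gave 0.982 on the array labelled G2KO, 1.29 on G2WT, 0.00282 on DKO and 1.42 on DKOWT. The DKO value was not well above background, so the ratio is a limit. DKO was at least 194-fold lower than DKOWT (log2 ratio -7.60 or below) and at least 177-fold lower than G2WT. The weaker probe, which holds the ATG shown above, read 0.0383, 0.0493, 0.00892 and 0.0878 in the same order of arrays, again not well above background on DKO alone, and at least 9.84-fold lower there than on DKOWT. The limits of the probes differ by 4.30 on the log2 scale, and both place DKO lowest. Unlike Kctd15, Tfap2a differed little among the other arrays, with log2 ratios of -0.40 for the array labelled G2KO against G2WT and 0.14 for DKOWT against G2WT.

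Tfap2b, a close paralogue that also acts in neural crest and kidney, was well above background on 2 arrays. It read 0.101 on the array labelled G2KO and 0.0553 on DKOWT, against 0.00208 on G2WT and 0.00197 on DKO. DKO was at least 7.57-fold lower than DKOWT, and the array labelled G2KO was at least 14.1-fold higher than G2WT. Between G2WT and DKO no ratio can be given. Tfap2c, known from trophoblast and germ cells, was not well above background on any array, with relative signals from 0.00142 to 0.0043, and has no ratio.

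Snai1 and Snai2 are zinc finger repressors of epithelial genes. Snai1 read 8.69 on the array labelled G2KO, 2.53 on G2WT, 1.19 on DKO and 9.01 on DKOWT. Snai2 read 3.69, 1.14, 1.004 and 4.19 in the same order. Both were high on DKOWT and on the array labelled G2KO and low on DKO and G2WT. Snai1 was 7.56-fold lower on DKO than on DKOWT (log2 ratio -2.92) and Snai2 4.17-fold lower (-2.06). The WT arrays differed by nearly as much for Snai2, with DKOWT 3.68-fold above G2WT, and by 3.55-fold for Snai1. Set against G2WT in place of DKOWT, the DKO array had a log2 ratio of -1.09 for Snai1 and of -0.18 for Snai2, so neither was past 4-fold. For both genes, the error the software gave to each signal was about 10.0%, or 0.20 for a log2 ratio. That error does not cover the spread between cultures.

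Prrx1 was read by 2 probes that name different transcripts. The probe of NM_175686 read 4.29 on the array labelled G2KO, 1.15 on G2WT, 2.03 on DKO and 8.02 on DKOWT, and that of NM_001025570 read 1.41, 0.472, 0.506 and 2.71. Both were highest on DKOWT and lowest on G2WT. The first probe, the stronger, gave a log2 ratio of -1.98 for DKO against DKOWT, just short of 4-fold, and the other gave -2.42, just past it. Between the WT arrays the ratios were larger, 2.80 and 2.52, and against G2WT the DKO array was higher, by 0.82 and 0.10.

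Twist1 and Twist2 are basic helix-loop-helix (bHLH) factors that form dimers with E proteins. Twist1 was the least variable member, at 1.67 on the array labelled G2KO, 1.28 on G2WT, 1.03 on DKO and 1.37 on DKOWT, a range of 1.63-fold. Twist2 read 3.07, 0.267, 1.81 and 2.91. Here the array labelled G2WT stood apart from the other three, which lay within 1.69-fold of each other. The array labelled G2KO was 11.46-fold above it, DKOWT 10.9-fold and DKO 6.77-fold. DKO and DKOWT differed by 1.60-fold for Twist2 and by 1.33-fold for Twist1, so neither Twist gene moved past 4-fold in that comparison.

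Ets1, which is active in neural crest and in endothelial and lymphoid cells, varied by less than 2-fold over all 4 arrays on both probes. The stronger read 2.01 on the array labelled G2KO, 2.05 on G2WT, 1.07 on DKO and 1.44 on DKOWT, and the weaker read 1.15, 1.002, 0.591 and 0.831. DKO was lowest on both, by log2 ratios of -0.43 and -0.49 against DKOWT. The probes agree within 0.24 in every pair of arrays.

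Of the 10 genes, 9 could be compared between DKO and DKOWT, and 5 of these were at least 4-fold lower in DKO (Kctd15, Tfap2a, Tfap2b, Snai1 and Snai2) and 0 were higher. Over all genes compared, 1848 of 22889 (8.07%) differed at least 4-fold, 921 of them lower in DKO (4.02%). All 9 log2 ratios were below 0, where 47.5% of all genes were, with a median of -2.06 against 0.03 over all genes. DKO was the lowest array for 6 of the 9 genes and G2WT for Twist2 and Prrx1, while Tfap2b was dim on both. The share of all genes that were lowest on DKO was not computed. As the set was chosen with these values known, its counts say only what the set contains.

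In the G2KO comparison, 2 of 9 genes, Tfap2b and Twist2, exceeded 4-fold upward on the array labelled G2KO and 0 downward, where 1306 of 22793 genes (5.73%) were past 4-fold and 846 of them higher (3.71%). Kctd15, Snai1, Snai2 and Prrx1 lay between 1.70 and 1.90 on the log2 scale, below that threshold, and the median of the set was 1.78 against -0.17 over all genes.

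Between the WT arrays, 4 of 9 genes were at least 4-fold higher on DKOWT than on G2WT (Kctd15, Tfap2b, Twist2 and Prrx1), with 1637 of 22142 genes (7.39%) past 4-fold and 1025 higher (4.63%). The set's median was 1.88 against -0.08 over all genes. For Prrx1 and Twist2 the WT arrays lay farther apart than DKO and DKOWT did, whereas for Tfap2a they lay within 1.0998-fold and for Twist1 within 1.07-fold. The comparison shares G2WT with the G2KO comparison and DKOWT with the DKO comparison. Between the array labelled G2KO and DKOWT, 0 of 9 genes were past 4-fold, where 493 of 21412 genes (2.30%) were, and the members' log2 ratios lay from -0.90 for Prrx1 to 0.87 for Tfap2b. Each ratio rests on 1 array a side, so the number of arrays limits its precision.

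**Figure D2:**
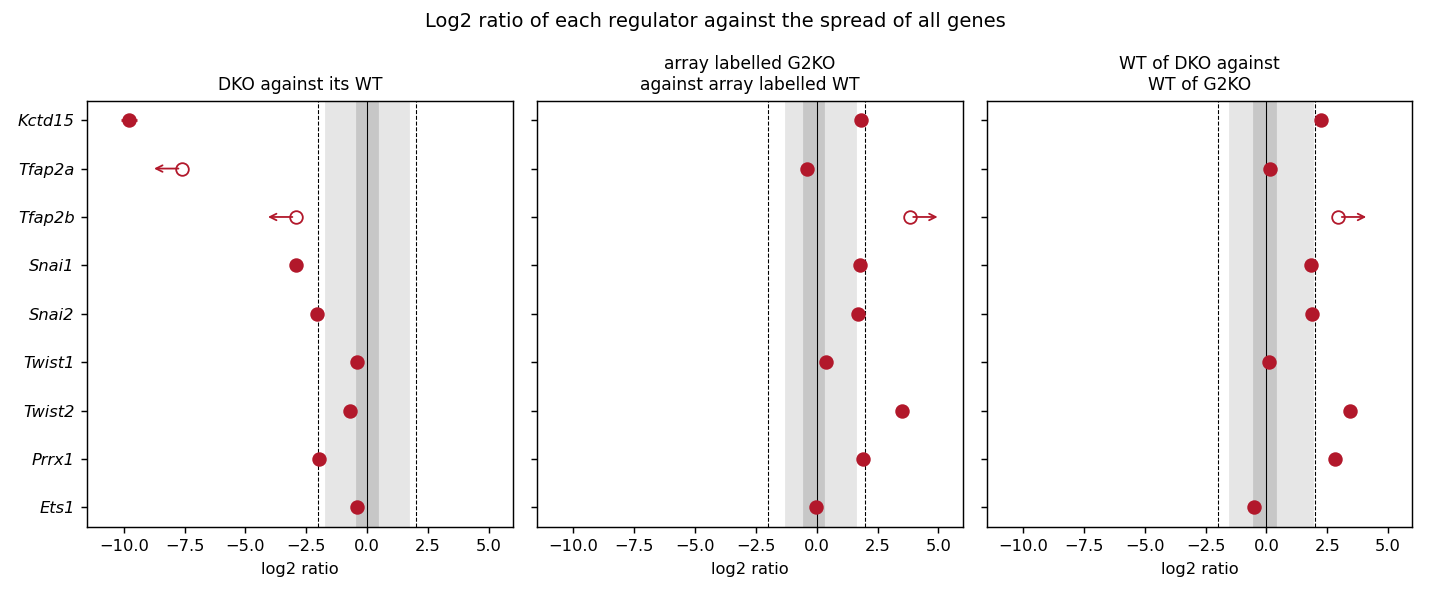
Log2 ratio (x axis) of the 9 regulators that could be compared, in 3 comparisons of 1 array each. Dark and light grey bands span the middle 50% and 90% of all genes, dashed lines mark 4-fold, bars are the software's signal errors, and open circles with arrows are limits. Kctd15 and Tfap2a lie far to the left in DKO (-9.78 and -7.60), and Twist2 lies to the right of 4-fold in the other panels (3.52 and 3.44).

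Markers of other cell types differed between the same arrays. All 12 mesothelial markers were well above background on DKO and 4 on DKOWT and on G2WT, with summed relative signals of 154 on DKO, 2.32 on DKOWT, 1.59 on G2WT and 2.13 on the array labelled G2KO. The sums on DKO and G2WT rest largely on Msln, at 100 and 1.52 there, and Krt18 read 24.7 on DKO. Wt1, Upk1b and Krt18 were among the markers of this list that were not well above background on DKOWT. The 12 fibroblast markers had all 12 well above background on DKO and DKOWT and 10 on G2WT, with sums of 327 on DKO, 527 on DKOWT, 340 on G2WT and 465 on the array labelled G2KO. Of these, 5 were at least 4-fold lower in DKO and 1 higher, the matrix proteoglycan Dcn, at 49.0 on DKO and 2.95 on DKOWT. Over all genes, 4.02% were that much lower in DKO and 4.05% higher. Pdgfra, a receptor of mesenchymal cells, was 5.22 on DKOWT, 0.0296 on DKO and not well above background on G2WT. Col1a1 and Vim lay within 1.5-fold of each other across arrays. On G2WT the neural progenitor markers summed to 31.4, against 2.36 to 4.24 on the others. That sum rests on Nes, at 28.0, and Sox2, at 2.37 there and not well above background elsewhere, whereas the neuronal tubulin Tubb3 was 8.61-fold lower on G2WT than on the array labelled G2KO. The part of these cell types in the ratios of the 10 regulators was not tested.

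The AP-2 partners were a list of 8 genes with other AP-2 family members, Kctd1, which is the paralogue of Kctd15, the Cited coactivators, Wwox and Ywhah. Of the 7 compared, 0 were past 4-fold in any of the 3 comparisons. Over all genes, 8.07% were past 4-fold for DKO against DKOWT, 5.73% for G2KO against G2WT and 7.39% between the WT arrays. In a list this short, a count of 0 lies near these shares. Kctd1 read 0.175, 0.159, 0.234 and 0.257 on the array labelled G2KO, G2WT, DKO and DKOWT, so its arrays lay within 1.61-fold where those of Kctd15 spanned 879.7-fold. The remaining AP-2 genes, Tfap2d and Tfap2e, read from 0.00205 to 0.0142.

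Other neural crest regulators numbered 18, of which 14 could be compared between DKO and DKOWT. Among them 7 were at least 4-fold lower in DKO and 0 higher, with a median log2 ratio of -2.07, where 4.02% of all genes were that much lower. On the array labelled G2KO, 5 of 15 were at least 4-fold above G2WT and 1 below, and on DKOWT 6 of 15 were above G2WT and 1 below. Over all genes, 3.71% and 4.63% were that much above G2WT in these comparisons. Alx1, a homeobox gene of facial mesenchyme, read 2.12 on DKOWT and 1.33 on the array labelled G2KO and was not well above background on DKO and G2WT, at least 290.3-fold lower on DKO than on DKOWT. The distal-less genes Dlx1, Dlx2 and Dlx5 of the pharyngeal arches were lower in DKO at least 81.3-fold, 24.4-fold and at least 23.8-fold. Sox9, which drives cartilage, had log2 ratios of -2.64 for DKO against DKOWT and 4.99 for DKOWT against G2WT. Pax3, of the neural crest and the somite, had ratios of -1.50 and 3.64 in the same comparisons. Sox10 and Foxd3, which mark migrating crest cells, were at most 0.0932 and not well above background, respectively.

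Among 18 genes of epithelial-to-mesenchymal transition and mesenchyme, 16 could be compared between DKO and DKOWT, with 1 at least 4-fold lower, 3 higher and a median of -0.68. In each of the other comparisons, 2 of 15 were higher and 1 lower. Over all genes, 8.07% were past 4-fold for DKO against DKOWT, 5.73% for G2KO against G2WT and 7.39% between the WT arrays. Foxc2 was lower in DKO, with a log2 ratio of -4.50, whereas Hand2 (5.07), Six2 (3.65) and Foxf1a (at least 3.86) were higher. Zeb1 and Zeb2, E-box repressors like the Snail factors, had log2 ratios of -0.53 and -1.79. The expression of Cdh1 itself, a repression target of these factors, was 0.250 on DKO and not well above background on DKOWT, at least 24.1-fold apart. On G2WT Cdh1 read 0.0130. Of 12 epithelial markers, Cdh1 among them, 8 were compared between DKO and DKOWT, with 2 at least 4-fold higher and 0 lower. Their median log2 ratio was 0.32. A link between Cdh1 and the levels of these factors was not tested.

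The bHLH partners and Id inhibitors numbered 11, of which 8 were compared, with 2 at least 4-fold lower in DKO and 0 past 4-fold in the other comparisons. Over all genes, 4.02% were that much lower in DKO. Id4, an inhibitor of E proteins, was lower in DKO, with 0.0425 on DKO and 1.87 on DKOWT (log2 ratio -5.46), and so was Tcf4, an E protein (-2.23). The other E proteins, Tcf3 and Tcf12, had log2 ratios of -0.74 and -1.26. In the ETS family, 1 of 16 genes compared was past 4-fold between DKO and DKOWT, near the share of 8.07% over all genes. This was Etv1 (-4.44), and the median of the family was -0.54. Of 17 compared in the other comparisons, the array labelled G2KO had 1 above and 1 below G2WT, and DKOWT had 1 above and 0 below it. Over all genes, 5.73% and 7.39% were past 4-fold there. Fli1, which lies next to Ets1 in the genome, was at least 14.8-fold higher on DKOWT than on G2WT, where Ets1 differed by 1.42-fold.

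**Figure D3:**
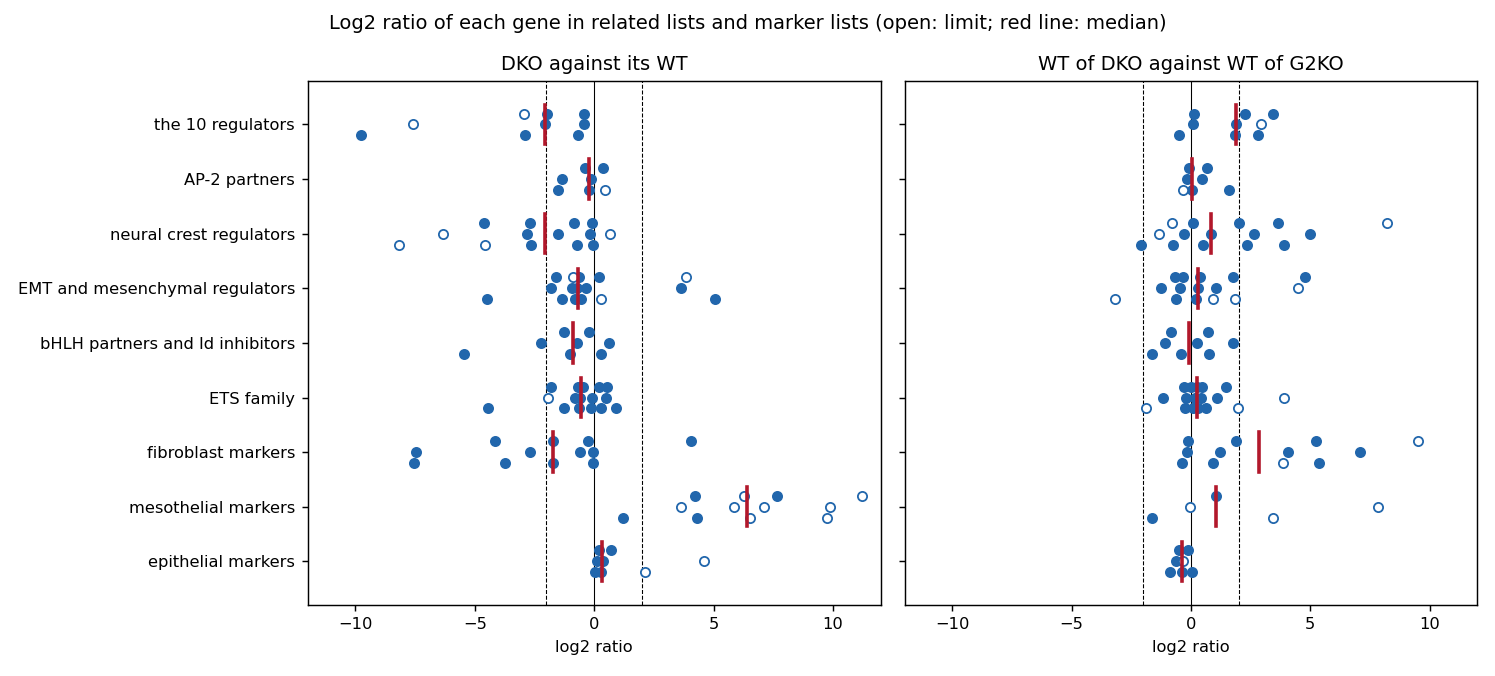
Log2 ratio (x axis) of each gene compared, by list (y axis), for DKO against its WT and for the WT arrays. Filled circles are measured ratios, open circles limits, red lines medians, and dashed lines 4-fold. The neural crest list has its median at -2.07 in DKO, near that of the 10 regulators, and all mesothelial markers lie above 0 there.

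For the members that were well above background on all 4 arrays and ranged at least 4-fold, genes of the most similar pattern were sought. The measure was the Euclidean distance of log2 signals centred on their mean over the 4 arrays. Candidates were 19463 other genes, likewise well above background on all 4 arrays. With 4 points per gene, likeness is a description. The nearest to Kctd15 was Dkk3, a secreted protein of the Dickkopf family, at a distance of 0.383, with 7.20, 1.54, 0.0110 and 7.58 on the array labelled G2KO, G2WT, DKO and DKOWT. The imprinted transcript Meg3 lay at a distance of 1.12. Snai1 was nearest to Oaf (0.0837), Prickle1 (0.154) and Rftn1 (0.204). Snai2 was nearest to the Wnt5a receptor Ror2 (0.182), Fgfr3 (0.196) and Adcy3 (0.259). Twist2 was nearest to the collagen receptor Mrc2 (0.236), Birc3 (0.286) and Gm15226 (0.301), and Prrx1 to Bst1 (0.335), Farp2 (0.359) and Tbkbp1 (0.373). No member was among the 3 nearest of another. Tfap2a, Tfap2b and Tfap2c could not be, since they were not well above background on all 4 arrays. Snai1 and Snai2 lay at 0.80 from each other, with 87 genes nearer to Snai1, and Snai2 and Prrx1 at 0.874.

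**Figure D4:**
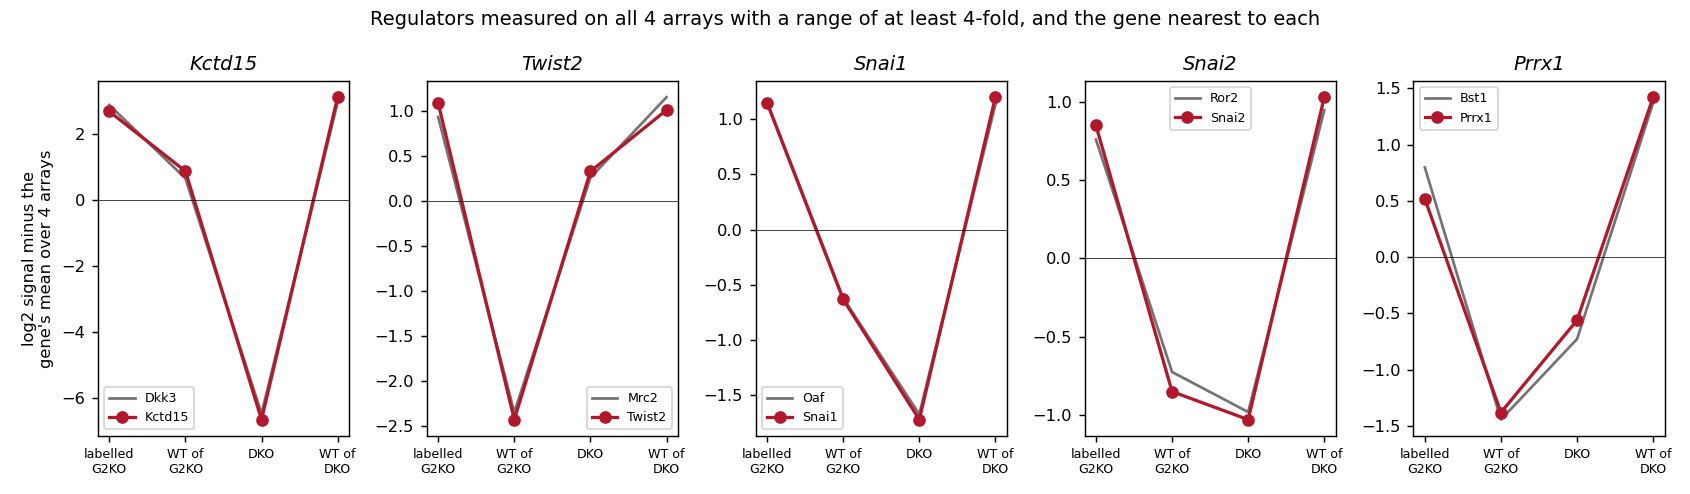
Log2 signal minus the gene's mean over the 4 arrays (y axis, its own scale in each panel) of 5 regulators, in red, and of the gene nearest to each, in grey. Lines only join the 4 arrays of a gene. Kctd15 and Dkk3 drop on DKO, Twist2 and Mrc2 on G2WT, and Snai1 and Snai2 on both.

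Sequence before the transcription start was available for 7 members, with 10 start sites, in RefSeq promoter windows of GRCm38.p6. The 250 bases before each start were searched for the AP-2 motif GCCNNNGGC, which reads the same on both strands, for the Snail E-box CAGGTG or its complement CACCTG, and for the ETS core CCGGAAG or its complement CTTCCGG. These motifs were chosen after the values had been seen. The AP-2 letters were found before 4 of the 10 starts, those of Kctd15 (the first and the last of 3 starts), Twist2 and Snai1, and in 13.7% of all 32851 windows of that length. The E-box was found before Snai1 alone and in 17.2% of windows, and the ETS core before none and in 6.91%. The shares over all windows were not matched for GC content. GC content was 72.4% before the first Kctd15 start, 52.8% before the last, 70% before Snai1 and 68.8% before Twist2. The windows that hold a match are shown, with the matches in capitals.
Kctd15, first start, chr7:34655510-34655759 of GRCm38.p6, minus strand: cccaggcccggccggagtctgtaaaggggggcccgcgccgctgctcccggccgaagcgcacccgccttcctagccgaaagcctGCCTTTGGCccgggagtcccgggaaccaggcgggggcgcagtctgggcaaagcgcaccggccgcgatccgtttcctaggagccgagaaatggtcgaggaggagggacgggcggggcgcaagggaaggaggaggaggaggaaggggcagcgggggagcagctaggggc
Kctd15, last start, chr7:34652933-34653182, minus strand: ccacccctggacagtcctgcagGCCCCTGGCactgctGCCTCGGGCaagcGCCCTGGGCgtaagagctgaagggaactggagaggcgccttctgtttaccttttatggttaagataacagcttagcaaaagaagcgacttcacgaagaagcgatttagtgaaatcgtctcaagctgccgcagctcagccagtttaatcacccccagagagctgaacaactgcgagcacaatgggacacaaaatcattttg
Snai1, chr2:167537945-167538194, plus strand: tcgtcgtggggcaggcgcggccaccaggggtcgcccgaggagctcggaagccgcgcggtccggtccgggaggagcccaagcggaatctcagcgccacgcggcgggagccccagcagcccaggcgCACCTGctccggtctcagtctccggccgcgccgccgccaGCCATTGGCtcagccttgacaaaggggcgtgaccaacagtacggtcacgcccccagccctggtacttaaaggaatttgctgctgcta
Twist2, chr1:91801211-91801460, plus strand: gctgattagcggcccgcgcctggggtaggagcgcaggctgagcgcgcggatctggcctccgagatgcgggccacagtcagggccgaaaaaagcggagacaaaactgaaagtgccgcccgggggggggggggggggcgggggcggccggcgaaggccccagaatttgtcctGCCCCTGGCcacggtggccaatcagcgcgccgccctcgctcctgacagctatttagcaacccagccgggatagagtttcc
Before the last Kctd15 start, 3 AP-2 matches began at positions -228, -213 and -200, counted from -1 at the base before the start. In Snai1, the E-box began at -126 and the AP-2 match at -87. Twist2, which holds an AP-2 match at -80, moved 1.60-fold between DKO and DKOWT, while Snai1 moved 7.56-fold and Kctd15 879.7-fold. A match says only that these letters occur in the window, and no binding was measured.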

How the data were processed

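Total RNA of MEFs was hybridised to 4 single-color Agilent arrays, 1 per group. The authors extracted each spot's signal intensity with Agilent Feature Extraction (10.7.3.1 in the file headers, 10.5.1.1 in the submitters' processing notes), which subtracts background and corrects for spatial trends. A deposited series table with the same intensity values served as an alternative. The study's methods describe dye-swapped arrays for G2KO, the labels single-color arrays.

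Log2 intensities were scaled by the 75th percentile of each array over its 43020 spots besides controls. Between 107 and 140 outlier spots per array were left out, and spots of a probe averaged. A probe dim on 1 array of a pair was set there to the array's lowest signal well above background (11.4 to 19.2 intensity units), or kept its own if higher, which gives a limit ("at least"). A probe dim on both has no ratio. A gene is its probe with the highest mean log2 signal. The fold threshold was 4, and with 1 array per group no test was run.

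The members and lists were chosen with earlier results of these data known. Named genes were the members, Ccng1 and Ccng2, up to 6 genes a list past 4-fold between DKO and its WT or between WT arrays, and the 3 genes nearest to a member, of which 1 is not reported here. Any other gene was named after its values were seen. Probe positions on mm9 come from the files, and exon and UTR placement was not analysed here. Alternatives were other scalings, normexp with an offset of 50 (limma 3.58.1), other filters and thresholds, the median over a gene's probes, and other WT arrays. Ratios were computed in Python 3.11.15 (pandas 2.3.3, numpy 2.4.6) and the calculation was tested on simulated data.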

Additional observations from a re-analysis of the deposited data

Results flagged for a closer look

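For 5 of the 9 regulators compared, the array labelled G2KO and the DKO array lay on opposite sides of their own WT arrays by at least 2-fold. The share of all genes that do so was not computed, so the count says only what the set contains. The log2 ratio of G2KO against G2WT minus that of DKO against DKOWT was 11.59 for Kctd15, at least 6.74 for Tfap2b, 4.70 for Snai1, 3.76 for Snai2 and 3.88 for Prrx1. The comparisons share no array, but each arm is 1 array, so the difference was not tested, and it rests on the labels of the G2KO comparison and on G2WT as its reference. Against DKOWT, the log2 ratios of the array labelled G2KO were at or below -0.05 for Kctd15, Snai1, Snai2 and Prrx1, and 0.87 for Tfap2b. On the array labelled G2WT, the same genes were between 3.55-fold and 7.72-fold below DKOWT (a limit for Tfap2b), in the direction in which DKO lay below DKOWT.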

How the results depend on the processing

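No paired analysis was possible because each group has 1 array and the groups share only replicate number 1. All 11 ratios past 4-fold kept their sign under every alternative that gave a value, but part of this was fixed in advance. The 4 of them between the WT arrays had no alternative with another WT array. With its own WT array, a limit could not change sign in the settings that use limits. The deposited series table held the same values as the main analysis. Of all 27 ratios, 10 changed sign under at least 1 alternative, of which 4 did so with their own WT array. Those 4 were small, for Tfap2a and Ets1 in the G2KO comparison and Tfap2a and Twist1 between the WT arrays. The other 6 changed with the WT array. Against DKOWT, the array labelled G2KO had log2 ratios of -0.43 for Kctd15, -0.05 for Snai1, -0.18 for Snai2 and -0.90 for Prrx1, where against G2WT they were 1.81, 1.78, 1.70 and 1.90. Against G2WT, DKO had 2.76 for Twist2. Of the 9 members compared in the main analysis, those past 4-fold for the array labelled G2KO numbered 2. The count was 6 with no scaling or at 2-fold, 1 with normexp, 1 against the mean of both WT arrays and 0 against DKOWT. With only probes well above background on both arrays it was 1 of 8, as Tfap2b then has no ratio. For DKO there were 5, but 6 with no scaling, with the median over a gene's probes or at 2-fold. The DKO count was 3 with normexp and 2 at 10-fold. With only probes well above background on both arrays it was 3 of 7, as Tfap2a and Tfap2b then have no ratio. The DKO count was also 3 of 8 against G2WT (Twist2 higher, Kctd15 and Tfap2a lower) and 3 against the mean of both WT arrays. Between the WT arrays there were 4, but 6 with no scaling or at 2-fold, 3 with normexp and 1 at 10-fold. With only probes well above background on both arrays there were 3 of 8. Under normexp Snai2 fell to -1.93 and Tfap2b to -1.08 in DKO. Kctd15 was at -7.25 and Tfap2a at -5.14. With no scaling all genes shifted by 0.49 for G2KO against G2WT and by 0.24 between the WT arrays, and with scaling to the median by -0.19 between the latter. The choice between the arrays labelled WT decided the DKO ratios of Snai2, which went from -2.06 to -0.18, and of Prrx1, which went from -1.98 to 0.82. Whether both of those arrays held wild-type cells was not tested. Signal over background limits Tfap2b, Tfap2c and the DKO values of Kctd15 and Tfap2a. A spread between cultures cannot be had from 1 array per group.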

Other observations

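Of 10 markers of Schwann cells and melanocytes, which derive from the neural crest, 8 were compared between DKO and DKOWT and 0 were past 4-fold in any of the 3 comparisons, with medians of 0.19 for DKO and -0.23 for the array labelled G2KO. Between the WT arrays 7 of 8 were higher on DKOWT, where 44.6% of all genes were, with a median of 0.94 against -0.08 over all genes. S100b is a limit there, and Erbb3 and Mlana read at most 0.0355 on either WT array. The summed relative signals of the 10 markers lay between 0.525 on G2WT and 0.938 on DKO. Of 4 muscle markers compared between DKO and DKOWT, 2 were above 0 and 2 below. Acta2 and Tagln, which encode contractile proteins and are bright in cultured fibroblasts, had log2 ratios of -2.17 and -3.50, while Myh11, a smooth muscle myosin, had at least 1.40 and Pax7, of muscle precursors, at least 0.67. Acta2 read 107.4, 210.4, 29.6 and 133 on the array labelled G2KO, G2WT, DKO and DKOWT. The endothelial markers, 7 compared, had 0 past 4-fold in the 3 comparisons. Macrophage markers had 0 past 4-fold in either knockout comparison and 1 between the WT arrays, Lyz2. Over all genes, 8.07% were past 4-fold for DKO against DKOWT, 5.73% for G2KO against G2WT and 7.39% between the WT arrays. In lists this short, a count of 0 or 1 lies near these shares.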
